A study of Mus musculus with 8 samples.

Results

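G2 and mitosis genes, whose products carry a cell from the end of DNA replication through chromosome segregation to the separation of the daughter cells, were compared between the intestinal epithelium of control mice and of mice without RANK. The 48 genes were taken by name from the 54532 genes of the count table: kinases, phosphatases and cyclins of mitotic entry, the spindle assembly checkpoint, the chromosomal passenger complex, kinetochore and spindle proteins, the machinery of cytokinesis, and chromosome proteins used as proliferation markers. All 48 were found in the table, and 44 had enough counts to be tested.

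Intestinal epithelial cells were collected at lactation day 5 from 4 WT and 4 Rank-knockout mice, 1 library per sample, on a C57BL/6J background. Rank, gene symbol Tnfrsf11a, encodes the receptor for the cytokine RANKL and activates NF-κB. Per the study's methods, the knockout (Rank Δvil) combined a floxed Rank allele with Cre recombinase under the Villin promoter, a promoter active in the intestinal epithelium, and controls were female littermates. The dams had been mated with wild-type males. Age and gut segment were not given in the sources used here for this comparison, and the genotype labels were the only groups. QuantSeq 3′ libraries were counted, which tag a transcript near its end, about once per molecule.

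In the small intestine, cell division takes place in the crypts. Stem cells at the crypt base and the transit-amplifying cells above them divide, and their daughters leave the cell cycle as they move onto the villus and become absorptive enterocytes or goblet cells. Most G2 and mitosis genes are transcribed only late in the cell cycle: the DREAM complex represses them in resting cells, and B-MYB, NF-Y and FOXM1 drive them in G2. In these bulk libraries more dividing cells, more RNA per dividing cell and a larger share of crypt cells among those collected cannot be told apart.

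Most promoters found for these genes hold 2 short elements that were not used to choose them. The cell cycle genes homology region, or CHR, is the element through which DREAM and B-MYB bind, and its standard form is TTTGAA. The CCAAT element is the box bound by NF-Y. RefSeq promoter windows, 250 bases before to 50 after each start (GRCm38.p6), were present for 39 of the 48 genes, in 42 windows. Stretches of 150 bases upstream of the start are shown for Cdk1, Cdc20, Kif11, Top2a and Mki67, which represent the kinase, the checkpoint, the spindle motors and the chromosome proteins. They are written 5′ to 3′ on the strand of the gene, with matches to TTTGAA and CCAAT on either strand in capitals (on the opposite strand these read TTCAAA and ATTGG).
Cdk1, chr10:69352913-69353062, minus strand: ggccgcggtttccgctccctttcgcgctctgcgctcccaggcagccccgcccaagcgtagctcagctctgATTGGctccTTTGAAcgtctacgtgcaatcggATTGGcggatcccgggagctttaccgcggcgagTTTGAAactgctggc
Cdc20, chr4:118437344-118437493, minus strand: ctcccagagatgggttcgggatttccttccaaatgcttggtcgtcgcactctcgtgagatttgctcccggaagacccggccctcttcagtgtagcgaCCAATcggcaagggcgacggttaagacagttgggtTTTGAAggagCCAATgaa
Kif11, chr19:37376232-37376381, plus strand: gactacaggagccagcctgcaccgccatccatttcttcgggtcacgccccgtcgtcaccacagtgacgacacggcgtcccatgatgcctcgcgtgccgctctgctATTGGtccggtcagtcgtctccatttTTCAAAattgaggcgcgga
Top2a, chr11:99024190-99024339, minus strand: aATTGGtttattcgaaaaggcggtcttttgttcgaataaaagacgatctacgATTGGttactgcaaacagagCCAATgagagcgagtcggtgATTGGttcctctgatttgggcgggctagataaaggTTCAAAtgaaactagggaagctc
Mki67, chr7:135716380-135716529, minus strand: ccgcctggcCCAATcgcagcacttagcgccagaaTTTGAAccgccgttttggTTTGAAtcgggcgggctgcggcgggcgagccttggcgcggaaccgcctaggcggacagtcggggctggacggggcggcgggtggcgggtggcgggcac

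In 4 of these 5 stretches a CHR lay close to the start with a CCAAT box upstream of it. The first base of the match was 15 bases before the start in Cdk1, 18 in Cdc20, 19 in Kif11 and 23 in Top2a, and the boxes upstream of it began 48 and 80 bases before the start in Cdk1, 53 in Cdc20 and 45 in Kif11. Mki67 had its CHR matches farther out, beginning 116 and 98 bases before the start. Cdk1 held a second CHR match beginning 71 bases before the start.

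Over the 42 windows, 32 held TTTGAA (76.2%), against 17.9% of all 32851 promoter windows. Within 50 bases of the start the shares were 66.7% and 4.94%. CCAAT was present in 81% of the windows of the G2 and mitosis genes and in 37.4% of all windows, and both elements together in 69% against 6.95%. The variant TTCGAA occurred in 4 windows (9.52%), against 1.56% of all windows. TTTGGCGC, a form of the site for the E2F factors that switch on S phase genes, occurred in 1 window (2.38%), in 5 of 42 windows (11.9%) of DNA replication genes and in 0.514% of all windows. The replication genes, which are transcribed earlier in the cycle, held TTTGAA in 11.9% and CCAAT in 59.5% of their windows. These shares are a description of letters in fixed windows, and TTTGAA and CCAAT do not overlap in sequence. A promoter entry was absent for Kif20a, Aurkb, Foxm1, Cdc25c, Smc4, Ccna2, Spc24, Tpx2 and Incenp.

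**Figure D1:**
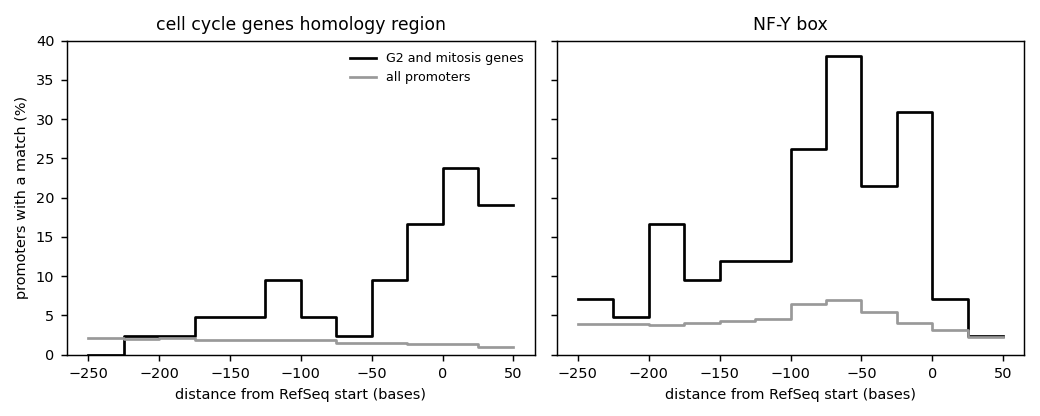
Share of promoter windows (%) with a match beginning in each 25-base bin, by distance from the RefSeq start in bases, for the 42 windows of G2 and mitosis genes (black) and all 32851 windows (grey), matches on either strand. The homology region peaks within 50 bases of the start in the G2 and mitosis genes and the NF-Y box peaks upstream of it, while over all promoters they stay at or below 2.12% and 6.99% of windows per bin.

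Total counts ran from 1530781 to 4335653 per library, and 3 of the 4 WT libraries lay near the lower end, so that genes with few counts were measured less precisely in WT. The totals cover tags without molecular identifiers, and replicates of a genotype differed by more than counting noise. Log2 fold changes give Rank-knockout relative to WT, so that 1 is a 2-fold rise, and CPM are counts scaled to a common library size with edgeR's TMM factors. The labelled cell type was checked on its defining markers. Epcam, Vil1, Cdh1 and Cldn7 were abundant in every library, while markers of stromal, muscle and endothelial cells summed to at most 11.3 CPM in any library and those of myeloid cells to at most 23.3 CPM, with no gene of either list passing the filter on low counts. The targeted gene, Tnfrsf11a, had a log2 fold change of -0.67 (edgeR adjusted p = 0.032; SE 0.22), and because a 3′ tag can lie outside the deleted exons this checks nothing about the labels.

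Of the 44 tested genes, 40 were higher in Rank-knockout and 0 were lower at an edgeR quasi-likelihood adjusted p under 0.05, where 15.8% of all 9855 tested genes were higher and 14.6% lower (1555 and 1438 genes, or 2575 and 857 when scaled by library totals). The median log2 fold change of the tested genes was 1.09, against 0.02 over all tested genes. At an unadjusted p under 0.05, edgeR also put none of the 44 lower, and DESeq2 called none of them lower. The 4 Rank-knockout libraries lay entirely above the 4 WT libraries in 38 of the 44, and 28.8% of all tested genes had no overlap between the genotypes in either direction. In 29 of the 40 the rise was at least 2-fold. All 44 log2 fold changes were positive, from 0.08 for Pttg1 to 1.84 for Cdc25c. Cdc25c and Nuf2 passed the filter on low counts through Rank-knockout libraries alone, so their positive sign adds nothing to this count.

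**Figure D2:**
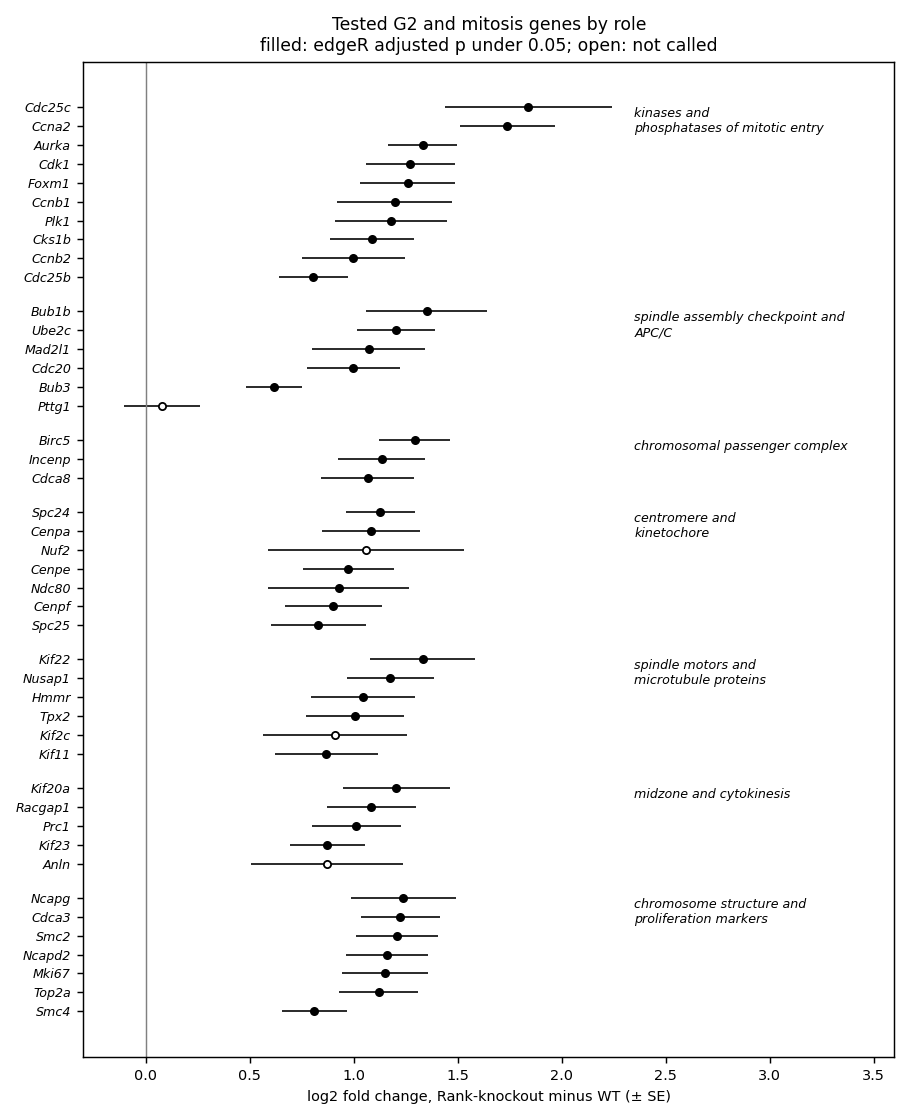
Log2 fold change (Rank-knockout minus WT, ± SE, n = 4 libraries per genotype) of the 44 tested G2 and mitosis genes, grouped by role. Filled points passed an edgeR adjusted p of 0.05 and open points did not; all but Pttg1 lie between 0.62 and 1.84, whatever their role.

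The kinases, phosphatases and cyclins of mitotic entry held the largest changes. All 10 tested genes of this group rose, with a median log2 fold change of 1.23 and no overlap between the genotypes. Cdk1 (ENSMUSG00000019942; GRCm38 chromosome 10, 69335146 to 69352938), the kinase that drives entry into mitosis, was at 61.7, 43.1, 71.7 and 36.6 CPM in WT replicates 1 to 4 and at 173, 108, 116 and 112 CPM in Rank-knockout replicates 1 to 4. Every Rank-knockout library was above the highest WT library, and replicate 1 was the highest of all. The log2 fold change was 1.27 (edgeR adjusted p = 0.00076; SE 0.21).

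Ccna2 (ENSMUSG00000027715; chromosome 3, 36564865 to 36572150) encodes cyclin A2, a partner of the cyclin-dependent kinases in S phase and G2. It was at 10.96, 9.12, 13.0 and 7.32 CPM in the WT libraries and at 40.5, 36.4, 27.4 and 28.2 CPM in the Rank-knockout libraries, a gap wider than the WT range. Its log2 fold change of 1.74 (edgeR adjusted p = 0.00019; SE 0.23) was 3.34-fold. The B-type cyclins activate Cdk1 at mitosis. Ccnb1 (ENSMUSG00000041431; chromosome 13, 100778650 to 100786570) was at 14.4, 13.2, 8.88 and 5.33 CPM in WT and at 34.0, 18.4, 22.0 and 23.5 CPM in Rank-knockout, a log2 fold change of 1.20 (edgeR adjusted p = 0.0048; SE 0.28). Ccnb2 (ENSMUSG00000032218; chromosome 9, 70407692 to 70421547) was at 9.59, 9.38, 10.9 and 12.0 CPM in WT and at 21.7, 12.8, 21.6 and 26.1 CPM in Rank-knockout. There the lowest Rank-knockout library, replicate 2, lay just above the highest WT library, and the log2 fold change was 0.998 (edgeR adjusted p = 0.0071; SE 0.25). The last bases of the Ccnb1 transcript match 3 processed pseudogenes closely, over up to 394 bases, so reads of Ccnb1 may have been lost to multiple matches, and its level is uncertain. The pseudogenes themselves had 0 counts.

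Aurka had the smallest edgeR p of the 44 tested genes. Aurora A (gene ENSMUSG00000027496; chromosome 2, 172356190 to 172370535), a kinase of centrosome maturation and spindle assembly, was at 34.3, 37.3, 39.6 and 26.6 CPM in WT and at 102, 81.4, 83.2 and 81.2 CPM in Rank-knockout. WT spread was small beside the gap, and the log2 fold change was 1.33 (edgeR adjusted p = 0.00014; SE 0.17). Plk1 (ENSMUSG00000030867; chromosome 7, 122159439 to 122169873), a kinase that acts from mitotic entry to cytokinesis, was at 115, 171, 138 and 68.6 CPM in WT and at 417, 226, 243 and 236 CPM in Rank-knockout. Rank-knockout replicate 1 stood well above the other libraries of its genotype. The log2 fold change was 1.18 (edgeR adjusted p = 0.0071; SE 0.27), and 0.92 without that library.

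Foxm1 (ENSMUSG00000001517; chromosome 6, 128362967 to 128376146), a transcription factor for many of the other genes, was at 8.22, 10.9, 10.9 and 7.32 CPM in WT and at 28.0, 22.1, 22.5 and 18.7 CPM in Rank-knockout. It rose by a log2 fold change of 1.26 (edgeR adjusted p = 0.0011; SE 0.23) with no overlap. The CDC25 phosphatases remove the inhibitory phosphates from Cdk1. Cdc25c (ENSMUSG00000044201; chromosome 18, 34732993 to 34751533) was at 1.37, 1.52, 1.37 and 3.33 CPM in WT and at 6.37, 6.38, 8.99 and 5.27 CPM in Rank-knockout. Its log2 fold change was the largest of the 44, 1.84 (edgeR adjusted p = 0.0032; SE 0.40), but it rested on a total of 15 counts in WT and 87 in Rank-knockout. No WT library reached the level of the filter on low counts, so the gene was tested only because its Rank-knockout libraries did. Cdc25b rose by 0.81 (edgeR adjusted p = 0.0024; SE 0.17) on far more counts, from 151 ± 35.9 to 266 ± 35.2 CPM (SD, n = 4).

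The small CKS proteins bind cyclin-dependent kinases and help them to act on phosphorylated substrates. Cks1b (ENSMUSG00000028044; chromosome 3, 89415472 to 89418383) was at 19.2, 20.3, 29.4 and 19.3 CPM in WT and at 57.1, 41.3, 50.4 and 37.2 CPM in Rank-knockout, so that the genotypes did not overlap. The log2 fold change was 1.09 (edgeR adjusted p = 0.0013; SE 0.20). Its paralogue Cks2 (ENSMUSG00000062248; chromosome 13, 51645232 to 51650660) was hardly counted, with 2 counts in WT replicate 1 and 0 in the other WT libraries, and 5, 0, 1 and 8 counts in Rank-knockout. It did not pass the filter on low counts and was not called without it (edgeR adjusted p = 0.29). The end of its transcript matches 3 processed pseudogenes over 229 bases, so the level of Cks2 is uncertain.

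**Figure D3:**
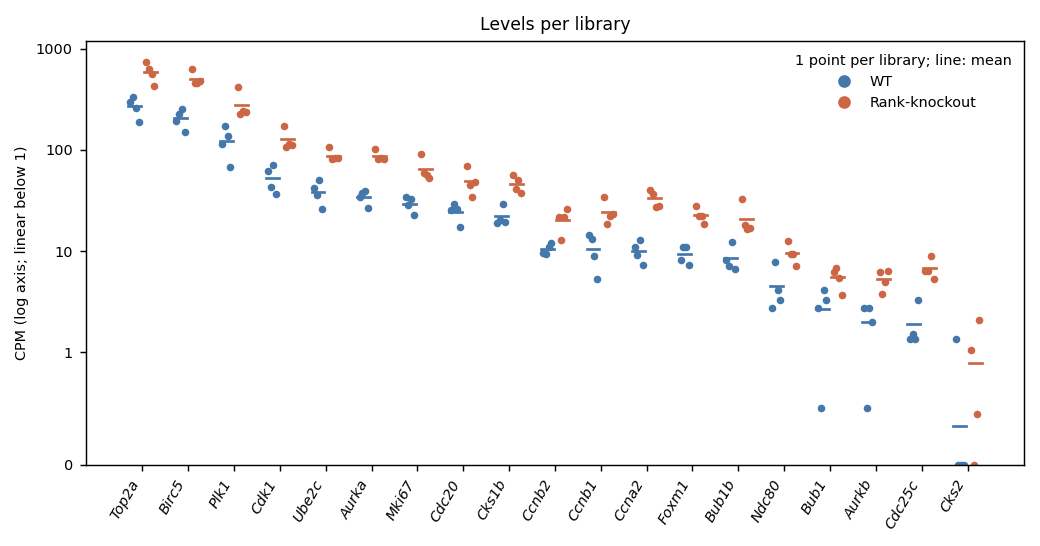
CPM per library on a log axis (linear below 1) for 19 G2 and mitosis genes, WT in blue and Rank-knockout in red, 1 point per library from replicate 1 at the left to 4, with a line at the mean. Rank-knockout points lie above all WT points except in Ndc80, Bub1 and Cks2, and the leftmost red point, replicate 1, is often the highest.

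The spindle assembly checkpoint holds back the anaphase-promoting complex (APC/C) until all chromosomes are attached, and here its tested components and the APC/C partners of mitosis rose except for Pttg1. Of 6 tested genes 5 were higher. Bub1b (ENSMUSG00000040084; chromosome 2, 118598211 to 118641591), the checkpoint protein BubR1, was at 8.22, 7.10, 12.3 and 6.66 CPM in WT and at 32.5, 18.0, 16.6 and 16.9 CPM in Rank-knockout. All Rank-knockout libraries exceeded all WT libraries, and replicate 1 stood apart at the top. Its log2 fold change of 1.35 (edgeR adjusted p = 0.0030; SE 0.29) was 1.04 without that replicate. Mad2l1, the checkpoint protein MAD2, rose by 1.07 (edgeR adjusted p = 0.0076) and Bub3 by 0.62 (edgeR adjusted p = 0.0032), the smallest of the 40 called changes.

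Cdc20 (ENSMUSG00000006398; chromosome 4, 118432901 to 118437352), the mitotic activator of the APC/C, was at 25.3, 29.1, 26.0 and 17.3 CPM in WT and at 68.8, 44.7, 34.2 and 48.8 CPM in Rank-knockout, without overlap. The log2 fold change was 0.997 (edgeR adjusted p = 0.0040; SE 0.22). Ube2c (ENSMUSG00000001403; chromosome 2, 164769898 to 164778822), the ubiquitin-conjugating enzyme that works with the APC/C, was at 41.8, 35.7, 50.5 and 26.0 CPM in WT and at 106, 81.1, 82.7 and 82.8 CPM in Rank-knockout. It rose by a log2 fold change of 1.21 (edgeR adjusted p = 0.00044; SE 0.19). Bub1 (ENSMUSG00000027379; chromosome 2, 127801122 to 127831865), the kinase that recruits the checkpoint to kinetochores, did not pass the filter on low counts. It had 4, 2, 6 and 5 counts in WT and 29, 18, 12 and 14 counts in Rank-knockout, or 2.74, 0.51, 4.098 and 3.33 CPM against 6.16, 6.75, 5.40 and 3.69 CPM, and the lowest Rank-knockout library was inside the WT range. Tested without that filter, it had a log2 fold change of 1.31 (edgeR adjusted p = 0.039), and DESeq2 did not call it (1.18; adjusted p = 0.12).

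Pttg1 had the smallest change of the 44. It encodes securin, the inhibitor of separase that the APC/C destroys at anaphase, and was singled out after its values were seen. Pttg1 (ENSMUSG00000020415; chromosome 11, 43420250 to 43426251) was at 23.3, 33.7, 31.4 and 26.6 CPM in WT and at 29.1, 34.9, 27.4 and 31.4 CPM in Rank-knockout. The libraries of the genotypes were fully mixed. Its log2 fold change was 0.08 (edgeR adjusted p = 0.79; SE 0.18), on 253 WT counts in all, where Mki67 had 244. Across all scalings, tools and left-out libraries it ran from -0.04 to 0.28. Stretches of up to 66 bases near the end of the transcript match 39 other genes, so reads of other genes may be counted in it or its own reads lost, which makes the value uncertain.

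The chromosomal passenger complex, which corrects faulty attachments and later marks the cleavage plane, rose as far as it could be tested (3 of 3). Birc5 (ENSMUSG00000017716; chromosome 11, 117849251 to 117855743), which encodes survivin, was at 192, 227, 251 and 150 CPM in WT and at 626, 454, 455 and 478 CPM in Rank-knockout. The gap between the genotypes was wider than the WT range. Its log2 fold change was 1.29 (edgeR adjusted p = 0.00019; SE 0.17). Incenp, the scaffold of the complex, rose by 1.14 (edgeR adjusted p = 0.0014) and Cdca8, or borealin, by 1.07 (edgeR adjusted p = 0.0029). The kinase of the complex, Aurkb (ENSMUSG00000020897; chromosome 11, 69045647 to 69051664), had too few counts for the filter, with 4, 2, 4 and 3 counts in WT and 29, 10, 11 and 24 counts in Rank-knockout. At 2.74, 0.51, 2.73 and 1.997 CPM against 6.16, 3.75, 4.95 and 6.33 CPM its libraries did not overlap, and unfiltered it had a log2 fold change of 1.70 (edgeR adjusted p = 0.0071), and DESeq2 called it too (1.59; adjusted p = 0.038).

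At the centromere and kinetochore, where microtubules attach, 6 of 7 genes rose. Cenpa, the histone variant of the centromere, rose by 1.08 (edgeR adjusted p = 0.0033), the kinesin Cenpe by 0.97 (0.0042) and Cenpf by 0.90 (0.0088). The 4 subunits of the NDC80 complex, which holds the microtubule end, had log2 fold changes of 1.13 for Spc24, 0.83 for Spc25, 0.93 for Ndc80 and 1.06 for Nuf2. Ndc80 (ENSMUSG00000024056; chromosome 17, 71496100 to 71526857) was at 2.74, 7.86, 4.098 and 3.33 CPM in WT and at 12.5, 9.38, 9.44 and 7.12 CPM in Rank-knockout. WT replicate 2 lay within the Rank-knockout range, and the gene passed only narrowly (edgeR adjusted p = 0.049; SE 0.34), a call lost with RLE size factors, DESeq2, limma-voom and thinning, and in fits that left out replicate 1, 3 or 4 of WT, or 1, 2 or 3 of Rank-knockout, at log2 fold changes from 0.74 to 0.95. Without WT replicate 2 it was called at 1.49. Nuf2, on 26 WT counts, did not pass (edgeR adjusted p = 0.099). The end of Spc24 shares 151 bases with Malat1, an abundant noncoding RNA, so its value is uncertain.

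Motors and microtubule proteins of the spindle followed the same course in 5 of 6 cases. Kif22, a chromosome-arm kinesin, rose by 1.33 (edgeR adjusted p = 0.0015), the spindle protein Nusap1 by 1.18 (0.00097), Hmmr by 1.04 (0.0057) and Tpx2, the activator of Aurora A, by 1.01 (0.0048). The ends of Tpx2 and of Cenpf each match 1 other gene, over 65 and 58 bases, so both values are uncertain. Kif11, the motor that pushes the spindle poles apart, rose by 0.87 (edgeR adjusted p = 0.015) with overlapping libraries, and was not called without WT replicate 4 (0.74, adjusted p = 0.057) or after thinning to the shallowest total (0.66, 0.15). Kif2c, a microtubule depolymerase, had a log2 fold change of 0.91 and did not pass (edgeR adjusted p = 0.057).

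Of the genes of the midzone and of cytokinesis, 4 of 5 tested genes rose. The kinesins Kif20a and Kif23 rose by 1.21 and 0.87, the microtubule bundler Prc1 by 1.01 and Racgap1, Kif23's partner in centralspindlin, by 1.08, with edgeR adjusted p values from 0.0017 to 0.0029. The end of the Racgap1 transcript matches at least 403 other genes over up to 53 bases, so its value is uncertain. Anln, or anillin, the scaffold of the contractile ring, had a log2 fold change of 0.87 and did not pass (edgeR adjusted p = 0.082), and this was 0.53 without Rank-knockout replicate 1. Ect2, which activates RhoA at the cleavage site, was not tested, at 33 counts over WT and 111 over Rank-knockout. Unfiltered, it had a log2 fold change of 1.07 (edgeR adjusted p = 0.034), and DESeq2 did not call it (1.02; adjusted p = 0.12).

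All 7 chromosome proteins and proliferation markers rose with no overlap. Mki67 (ENSMUSG00000031004; chromosome 7, 135689784 to 135716361), which encodes the proliferation antigen Ki-67, was at 34.3, 28.4, 32.8 and 22.6 CPM in WT and at 90.8, 58.9, 57.1 and 53.0 CPM in Rank-knockout, a log2 fold change of 1.15 (edgeR adjusted p = 0.00095; SE 0.20). The end of its transcript matches a processed pseudogene over 190 bases, which had 1 count in all libraries, so its level is uncertain. Top2a (ENSMUSG00000020914; chromosome 11, 98992943 to 99024189), the topoisomerase that untangles sister chromatids, was at 299, 335, 261 and 191 CPM in WT and at 738, 626, 565 and 433 CPM in Rank-knockout. In both genes every Rank-knockout library was above every WT library. The log2 fold change of Top2a was 1.12 (edgeR adjusted p = 0.00075; SE 0.19). The condensin subunits Smc2, Ncapd2 and Ncapg rose by 1.21, 1.16 and 1.24, Smc4 by 0.81, and Cdca3, which triggers the breakdown of WEE1, by 1.22.

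Whether partners and paralogues rose to the same extent was examined by the log2 ratio of their counts within each library, after a prior count of 2 scaled to library size, on which ratios with a gene of few counts depend. For 8 pairs the ratios were compared between the genotypes by an exact two-sided permutation test over the 70 assignments of the libraries, where the smallest possible p is 0.029, with adjustment over the 8 pairs. A single pair at that smallest p is at 0.23 after adjustment, so the adjusted test could not pass for 1 pair alone. For Smc2/Smc4, the core pair of condensin, the log2 ratio was -0.59, -0.40, -0.36 and -0.71 in WT and 0.15, -0.26, -0.23 and -0.21 in Rank-knockout, without overlap. The difference was 0.38 with an exact permutation p of 0.029 and 0.23 after adjustment, the smallest values that 1 pair alone could reach. The Cdc25b/Cdc25c ratio differed by -0.72 (exact permutation p = 0.14, adjusted 0.57), from 5.88 ± 0.63 in WT to 5.17 ± 0.42 in Rank-knockout (SD, n = 4).

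For the other 6 pairs the difference in log2 ratio was 0.34 for Ccnb1/Ccnb2, 0.45 for Cks1b/Cks2, 0.10 for Aurka/Aurkb, -0.19 for Bub1/Bub1b, -0.34 for Ndc80/Nuf2 and 0.23 for Spc24/Spc25. Their exact permutation p values ran from 0.31 to 0.89. The libraries of the genotypes overlapped in all 6 pairs. Ccnb1/Ccnb2 differed by 0.0097 when WT replicate 4 was left out, and Cks1b/Cks2 by 0.016 when WT replicate 1 was and by 0.88 when Rank-knockout replicate 4 was. Leaving out WT replicate 4 also turned the sign of Aurka/Aurkb (-0.057), Bub1/Bub1b (0.046) and Ndc80/Nuf2 (0.17). SDs within a genotype reached 1.13 for Ndc80/Nuf2, and ratios that involve Cks2, Aurkb, Bub1, Cdc25c or Nuf2 rest on 2 to 26 WT counts of that gene.

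**Figure D4:**
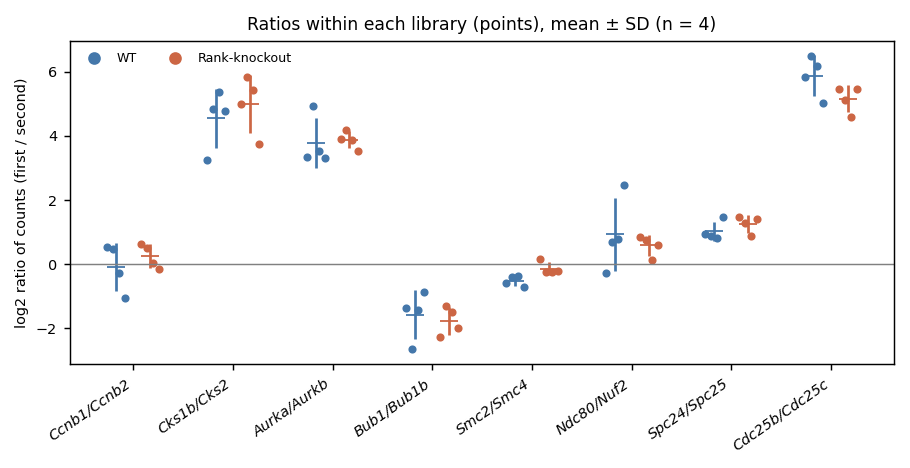
Log2 ratio of the counts of 8 pairs of G2 and mitosis genes in each library (points, prior count 2), with the mean and SD of 4 WT (blue) and 4 Rank-knockout (red) libraries. Only Smc2/Smc4 and no other pair has all red points above all blue points; the spread is widest for pairs with a gene of few counts.

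The rise was present in every Rank-knockout library, but its size differed between libraries. CPM summed over the 48 genes were 1926, 2133, 2068 and 1395 in WT and 5086, 3752, 3656 and 3420 in Rank-knockout. Rank-knockout replicate 1 was the highest of its genotype in 37 of the 44 tested genes, and WT replicate 4 the lowest of its genotype in 32. Without Rank-knockout replicate 1, 39 of 43 tested genes were higher with a median log2 fold change of 0.94, and without WT replicate 4, 39 of 47 with a median of 0.96. Over all single libraries left out the count of higher genes ran from 39 to 41 and the median from 0.94 to 1.19. With library totals in place of TMM, which moves the median of all tested genes from 0.02 to 0.23, the median of the 44 was 1.29 and 43 were higher.

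Markers of the crypt and the villus moved with the genotype and in part with these libraries. Of 10 villus enterocyte markers 9 were lower and 0 higher, with a median log2 fold change of -1.17, led by the trehalose-splitting enzyme Treh (-1.39) and the apolipoprotein Apoa1 (-1.26). Their summed level was 29506, 25032, 33006 and 35282 CPM in WT and 12205, 15349, 15407 and 16701 CPM in Rank-knockout. WT replicate 4 was thus highest and Rank-knockout replicate 1 lowest in villus markers, the reverse of their place in G2 and mitosis genes. Of 9 crypt base stem cell markers 6 were higher and 0 lower (median 1.03), led by Ephb2 (1.01) and Smoc2 (1.30). Their summed level was 702, 527, 460 and 506.5 CPM in WT, where replicate 4 was not the lowest, and ran from 707 to 1488 CPM in Rank-knockout. Rank-knockout replicate 4, the lowest of its genotype at 707 CPM, was near WT replicate 1 at 702 CPM in these markers, while the 48 genes summed to 3420 CPM in the former and 1926 CPM in the latter.

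Paneth markers, which also mark the crypt base, were higher in 5 of 9 and lower in 0 (median 1.21), led by Ang4 (1.22) and Defa22 (1.52). Higher markers numbered 2 when replicate 1, 3 or 4 of WT or 1 or 3 of Rank-knockout was left out, and 8 with Rank-knockout replicate 4 left out. Their sums were 2705 to 4788 CPM in WT and 11590, 5712, 9452 and 3068 CPM in Rank-knockout, so that Rank-knockout replicate 4 was inside the WT range although its G2 and mitosis genes were not. These sums lean on Reg3g, a list member that was not called (0.40; edgeR adjusted p = 0.86), which was at 3291 CPM in Rank-knockout replicate 1 and 95.3 to 156 CPM in the other 3, and at 1632 CPM in WT replicate 3. Of the 7 goblet markers 4 were lower, among them Zg16 (-0.91) and Fcgbp (-0.64), and 2 were higher, Agr2 (0.85) and Spink4 (1.03). Of 8 general epithelial markers 2 were higher (Krt19, 0.65; Krt18, 0.41) and 3 lower (Krt20, -0.96; Vil1, -0.80; Epcam, -0.45), and just 1 was higher in 6 of the 8 fits that left out a library. Of 6 tested T cell markers 0 were called by edgeR or DESeq2, with a median of -0.37 and 1 at an unadjusted edgeR p under 0.05 (1 was lower when WT replicate 2 was left out), and their sums ran from 186 to 285 CPM in WT and 127 to 203 CPM in Rank-knockout. B and plasma cell markers summed to 56.7 to 154 CPM in WT and 9.89 to 53.7 CPM in Rank-knockout, with Igkc lower (-1.89) and Cd79a at 0 in all libraries. The part of these markers' cells in the rise of the G2 and mitosis genes was not tested.

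**Figure D5:**
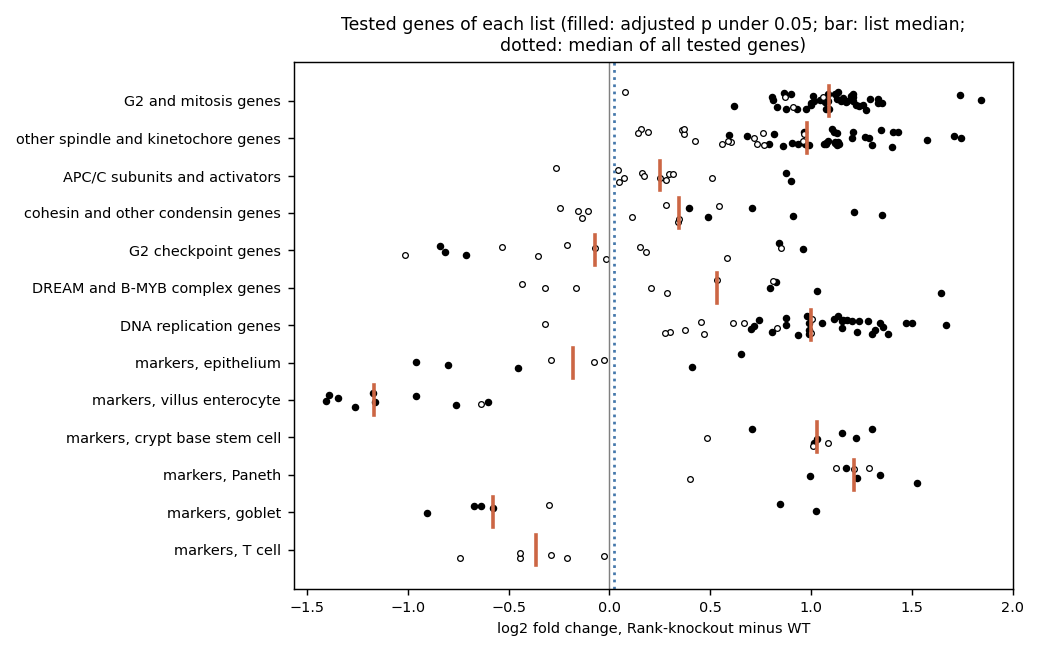
Log2 fold change (Rank-knockout minus WT) of the tested genes of the G2 and mitosis genes, of related lists and of cell type markers with at least 5 tested genes. Filled points passed an edgeR adjusted p of 0.05, bars are list medians and the dotted line is the median of all tested genes, 0.02; mitotic, spindle and replication genes gather near 1, APC/C and cohesin genes nearer 0, and villus enterocyte markers near -1.

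Further genes of the spindle and kinetochore were also mostly higher. Of 59 others 51 were tested, 35 were higher and 0 lower, with a median log2 fold change of 0.98. They were led by Knstrn, a kinetochore adaptor (1.40; edgeR adjusted p = 0.00026), and Melk, a mitotic kinase (1.74; 0.00039). This count was 21 of 50 without Rank-knockout replicate 1. DNA replication genes, of the phase before, were higher in 30 of 41 and lower in 0, with a median of 0.998. Gins2, a subunit of the replicative helicase, rose by 1.47 (edgeR adjusted p = 0.00027) and Dut, which removes dUTP, by 1.28 (0.00056).

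Of 13 tested APC/C subunits and activators 2 were higher, Anapc5 (0.88) and Cdc23 (0.90), and 0 lower, with a median of 0.25. That is 15.4%, next to the 15.8% of all tested genes. Of 15 cohesin and other condensin genes 6 were higher and 0 lower (median 0.34), led by Smc3, a cohesin core subunit (0.71), and Ncapg2, a condensin II subunit (1.35). Of the 11 tested genes of the DREAM and B-MYB complexes, which control the G2 and mitosis genes, 4 were higher and 0 lower (median 0.53), among them the histone-binding subunit Rbbp4 (0.80) and Tfdp1 (1.64), a partner of the E2F factors. Tfdp1, at no more than 3.33 CPM in any WT library, passed the filter on low counts through its Rank-knockout libraries alone. Without Rank-knockout replicate 1 the APC/C, the cohesin and condensin, and the DREAM lists held 1, 3 and 2 higher genes. The APC/C count was also 1 with replicate 1 or 2 of WT or replicate 3 of Rank-knockout left out, the cohesin and condensin count 3 without WT replicate 4, and the DREAM count 2 without WT replicate 3.

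In a list of G2 checkpoint genes, most of which restrain the cell cycle, the shares called in each direction were near those of all tested genes. Of 15 tested G2 checkpoint genes 2 were higher (13.3%) and 3 lower (20%), with a median log2 fold change of -0.07, and over all tested genes these shares were 15.8% and 14.6%. Higher were Pkmyt1, a kinase that inhibits Cdk1 (0.96; edgeR adjusted p = 0.013), and Chek2, a DNA damage kinase (0.84; 0.026). Lower were Cdkn1a, the inhibitor p21 (-0.84; edgeR adjusted p = 0.00073), Plk3 (-0.82; 0.026) and the antiproliferative factor Btg2 (-0.71; 0.035). Cdkn1a went from 247 ± 39.5 to 137 ± 9.29 CPM (SD, n = 4). With library totals 5 genes of this list were higher and 1 lower, so its balance depends on the scaling. The higher genes numbered 1 when replicate 1 or 4 of WT or replicate 1 or 3 of Rank-knockout was left out, and the lower genes 1 when replicate 3 or 4 of WT or replicate 1 of Rank-knockout was.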

How the data were processed

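Intestinal epithelial RNA of 4 WT and 4 Rank-knockout mice was sequenced as 3′ tags. The authors' methods describe trimming with BBDuk, removal of ribosomal, mitochondrial and phiX reads with bowtie2, alignment to GRCm38 with STAR and counting of sense-strand reads per gene with featureCounts. The deposited values are raw counts, not normalized, and the authors tested such data with DESeq2. Where reads match several places, genes with near-identical copies can lose counts. RNA preparation and sequencing batches are not given in the sources used here.

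Counts were tested over all genes with edgeR 4.0.16 (R 4.3.3, limma 3.58.1): filterByExpr, TMM, robust quasi-likelihood F-test by genotype, Benjamini-Hochberg adjustment over the 9855 tested genes, threshold 0.05. SE came from the F statistic. No row was a total. Symbols were taken from GENCODE M21 (GRCm38) for 54495 of 54532 genes. Transcript ends (last 500 bases) were searched for matches of at least 50 bases at 98% identity in other genes. For ratios of paired genes, a prior count of 2 scaled to library size was added. The scripts were tested on simulated data. Replicates of a genotype all differed by more than counting noise. The labels do not say whether litters or preparation days were shared.

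The 48 genes, the comparison lists and the tests were chosen with earlier results of these data known. Values per library are given for a fixed set of 17 leading genes, the 3 smallest p values, the 3 largest rises, any called fall and any negative fold change. Those of Pttg1 were added after its values were seen. Other genes are given by their call, and in other lists the 2 called genes with the smallest p in each direction are named. For the G2 checkpoint and general epithelial lists all called genes are named. The scaling was varied (RLE, totals alone, totals less the 50 most abundant genes), as were the filter (none, or a mean CPM of 5 or more) and the tool (limma-voom, DESeq2 1.42.0), and fits were repeated with a block for replicate number, on counts thinned to the shallowest total, and with each library left out.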

Additional observations from a re-analysis of the deposited data

Results flagged for a closer look

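In each genotype, a library was marked where its gap to the nearest other library was most of the whole range of the 4 (Dixon's criterion). This held in 13 of 58 sets of 4 values, where chance gives about 1 in 20, or 2.9. The sets share libraries, so they are not independent.

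Rank-knockout replicate 1 stood apart in 8 of the sets, each time at the top. It had 173 CPM of Cdk1, where the rest of its genotype had 108 to 116, 90.8 CPM of Mki67 (53.0 to 58.9), 102 CPM of Aurka (81.2 to 83.2), 417 CPM of Plk1 (226 to 243), 626 CPM of Birc5 (454 to 478), 106 CPM of Ube2c (81.1 to 82.8) and 32.5 CPM of Bub1b (16.6 to 18.0). Its log2 ratio of Smc2 to Smc4 was 0.15, against -0.26 to -0.21. This library also had the highest crypt base marker sum and the lowest villus marker sum of the 8. Its total was 4321154 counts, the second largest.

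Among WT libraries, replicate 2 had 4335653 total counts, against 1530781 to 1616024, and a log2 ratio of Aurka to Aurkb of 4.93, against 3.32 to 3.54, on 2 counts of Aurkb. WT replicate 3 had 29.4 CPM of Cks1b, against 19.2 to 20.3. WT replicate 1 had 1.37 CPM of Cks2, which is 2 counts, against 0 elsewhere. WT replicate 4 had 3.33 CPM of Cdc25c, against 1.37 to 1.52.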

How the results depend on the processing

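The 40 genes higher in Rank-knockout were 37 of 42 tested after thinning to the shallowest total, 44 of 48 without a filter, and 39 to 43 with the other scalings, filters and tools. None of the 48 was called lower in any of these fits or with any library left out, by edgeR, DESeq2 or limma-voom. Leaving out each library gave 39 to 41. The median log2 fold change ran from 0.94 (Rank-knockout replicate 1 left out) to 1.29 (library totals). Of the 40, 38 were called in every setting in which they were tested; the exceptions were Ndc80 and Kif11. Cdc25c was not tested at a mean CPM of at least 5 or after thinning. Kif2c, Anln and Nuf2, not among the 40, passed with library totals (1.11, 1.07 and 1.27). Anln and Kif2c also passed without the 50 most abundant genes in the library size (Kif2c at 1.04). Kif2c passed with limma-voom (0.99), unfiltered (0.95), and with replicate 1 of WT (1.14) or 3 of Rank-knockout (1.03) left out, and Nuf2 with replicate 2 of WT left out (1.72). Pttg1 ran from -0.036 without WT replicate 1 to 0.28 with library totals, and with libraries left out to 0.17 (WT replicate 2).

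Over all genes, library totals gave 2575 higher and 857 lower. Leaving out WT replicate 4 gave 1020 higher genes, the fewest of these fits, and leaving out Rank-knockout replicate 4 gave 1723. With library totals 5 APC/C genes were higher, and 5 G2 checkpoint genes were higher and 1 lower. Without the 50 most abundant genes in the library size, 1 checkpoint gene was lower. DESeq2 put 3 cohesin and condensin genes, 1 checkpoint gene and 2 DREAM genes higher, and limma-voom 1 checkpoint gene. After thinning, 1 APC/C gene and 1 DREAM gene were higher and 1 checkpoint gene lower. With each library left out, higher calls numbered 21 to 37 for the spindle and kinetochore list, from 1 to 2 for APC/C, from 3 to 5 for cohesin and condensin, from 1 to 3 for the G2 checkpoint (1 to 4 lower) and from 2 to 4 for DREAM. The cause was not tested.

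With a prior count of 0.5 the differences of Cks1b/Cks2 and Aurka/Aurkb were -0.20 and -0.16, and those of Ndc80/Nuf2 and Bub1/Bub1b -0.79 and -0.015. With a prior count of 5, Cks1b/Cks2, Aurka/Aurkb, Ndc80/Nuf2, Cdc25b/Cdc25c and Bub1/Bub1b differed by 0.70, 0.37, -0.11, -0.39 and -0.35. Without each library in turn the differences ran from -0.057 to 0.48 for Aurka/Aurkb, from -0.55 to 0.046 for Bub1/Bub1b from -0.74 to 0.17 for Ndc80/Nuf2, from 0.0097 to 0.55 for Ccnb1/Ccnb2, from 0.016 to 0.88 for Cks1b/Cks2, from 0.16 to 0.38 for Spc24/Spc25 and from 0.28 to 0.43 for Smc2/Smc4, and Cdc25b/Cdc25c stayed negative in each.

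Replicate numbers are shared between the genotypes, but same-numbered libraries correlated at 0.05, 0.15, -0.14 and 0.32 in their deviations from the genotype means, and 2 of 4 WT libraries correlated best with their own number, so the numbers were not taken as pairs. With the replicate number as a block, 40 of the 44 tested genes were higher, with a median of 1.10, and 1708 genes were higher and 1602 lower over all genes. A sign-flip test of the paired ratios cannot go below 0.125 with 4 differences.

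Depth limits the genes with few counts: Cks2, Aurkb, Bub1 and Ect2 had 2 to 33 WT counts in all.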
